A study of Mus musculus with 2 samples.

Results

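Carboxylesterases are the enzymes of the Ces gene family, which in the mouse has been enlarged by repeated gene duplication. Of 10 listed family genes, Ces1b, Ces1c, Ces1d, Ces1e, Ces1f, Ces1g, Ces2a, Ces2c, Ces2e and Ces3a, the array measured 7 with probe sets of their own. They were found by the gene symbol in the platform annotation, which gives 9 probe sets to these 7 genes out of 45101 on the array. A further probe set is assigned to Ces3a and Ces3b together, and no probe set was named for Ces1b or Ces2c. One group was liver taken 24 h after acute kidney injury (AKI), caused by 30 min of warm ischemia of both kidneys with reperfusion, and the other was liver taken 24 h after a sham operation. All mice were wild-type C57BL/6 females aged 8 weeks. Tissue of 3 mice was pooled in each group and each pool was measured on 1 array, so there is no replicate, no error between mice and no p-value for any value below. The comparison asks how distant kidney injury is reflected in the liver's transcripts for these enzymes.

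Carboxylesterases are serine hydrolases that cut ester, amide and thioester bonds. In hepatocytes most of them are held in the lumen of the endoplasmic reticulum, where they activate or clear ester drugs and break down neutral lipids, including triglyceride that is then packed into very low density lipoprotein (VLDL). The Ces1 enzymes and the Ces2 enzymes differ in the kind of ester they prefer, and transcription of several family genes is raised by nuclear receptors that sense drugs and bile acids.

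The family genes lie in 2 runs of neighbours on mouse chromosome 8 in the RefSeq gene table (GRCm38.p6). The first run holds Ces1a to Ces1h followed by Ces5a, and the second holds Ces2a to Ces2h followed by Ces3a, Ces3b and Ces4a. The 250 bases before the start of the gene were in the RefSeq promoter table for 7 of the 10 members, and for 5 of the 7 measured ones. They are shown for these 5 because neighbouring genes of common descent can be read side by side. The capitals mark the longest run of letters that the windows of Ces1c, Ces1e and Ces1g share, or the longest that the windows of Ces2a and Ces2e share.

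The sequences are given 5′ to 3′ on the strand of the gene, in build GRCm38.p6.
Ces1c, chr8:93131284-93131533, strand -: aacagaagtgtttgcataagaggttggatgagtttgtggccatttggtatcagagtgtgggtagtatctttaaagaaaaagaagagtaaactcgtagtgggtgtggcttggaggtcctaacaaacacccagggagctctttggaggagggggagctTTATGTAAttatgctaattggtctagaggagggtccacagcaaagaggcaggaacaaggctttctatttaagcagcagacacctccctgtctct
Ces1e, chr8:93229620-93229869, strand -: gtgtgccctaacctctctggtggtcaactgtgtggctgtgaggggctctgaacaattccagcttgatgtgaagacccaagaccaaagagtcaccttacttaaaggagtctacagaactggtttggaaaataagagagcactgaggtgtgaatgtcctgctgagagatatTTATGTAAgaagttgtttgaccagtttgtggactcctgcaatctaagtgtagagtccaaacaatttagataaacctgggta
Ces1g, chr8:93337210-93337459, strand -: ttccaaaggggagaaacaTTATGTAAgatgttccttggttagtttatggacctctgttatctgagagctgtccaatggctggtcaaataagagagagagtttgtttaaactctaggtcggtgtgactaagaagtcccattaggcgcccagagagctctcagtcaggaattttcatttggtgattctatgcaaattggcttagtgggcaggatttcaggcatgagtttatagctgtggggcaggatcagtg
Ces2a, chr8:104733753-104734002, strand +: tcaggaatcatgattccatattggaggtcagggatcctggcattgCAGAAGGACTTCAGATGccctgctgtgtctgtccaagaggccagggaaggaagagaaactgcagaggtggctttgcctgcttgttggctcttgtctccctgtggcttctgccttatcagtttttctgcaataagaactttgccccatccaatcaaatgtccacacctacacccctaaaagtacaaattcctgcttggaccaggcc
Ces2e, chr8:104926010-104926259, strand +: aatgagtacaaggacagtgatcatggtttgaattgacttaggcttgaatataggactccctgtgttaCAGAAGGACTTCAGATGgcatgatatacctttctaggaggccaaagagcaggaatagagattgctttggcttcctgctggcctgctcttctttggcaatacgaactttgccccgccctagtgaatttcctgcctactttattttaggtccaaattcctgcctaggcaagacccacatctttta

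The run shared by the 3 Ces1 windows has 8 bases, TTATGTAA. These letters match the D-box, the element read by the circadian PAR bZIP transcription factors. It starts 94 bases before the start of Ces1c, 81 before that of Ces1e and 232 before that of Ces1g, and on either strand it is in 0.819% of the 32851 windows of this length in the table. The Ces2a and Ces2e windows share 17 bases that no other window in the table holds. Among motifs searched on both strands in the 8 windows of members, the nuclear receptor half-site AGGTCA was in 1 window, that of Ces2a, and in 14.0% of all windows. The TATA box letters TATAAA were in 1 window, that of Ces1g, against 12.4% of all windows, and CCAAT was in 5 of 8, against 33.8%. The 8 windows include 2 of Ces1b, which overlap, and 1 of these also holds TTATGTAA. The runs and motifs were chosen with the sequences in view and describe letters, not bound sites.

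The liver identity of the pools was visible in hepatocyte genes, with albumin (Alb) signals of 98303.4 in the AKI pool and 124516 in the sham pool. Of 10 listed hepatocyte markers, 8 were measured and all 8 differed by less than 2-fold, with a median difference of -0.35. All differences here are log2 values, AKI minus sham, of the authors' signal plus 71.8, a constant that damps differences of weak signals. A gene is represented by its probe set of highest level and was counted when that level reached the array median in at least 1 pool, which 13128 of 18193 named genes did. In whole liver, fewer cells of a type and less RNA per cell cannot be told apart.

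The carboxylesterase transcripts differed little between the pools. All 7 measured genes passed the level filter and lay in the highest of 4 equal classes of gene level, and their differences ran from -0.44 for Ces1f to 0.33 for Ces1g, with a median of 0.11. With 0 of 7 genes at least 2-fold lower and 0 of 7 at least 2-fold higher, the family stood beside 12.4% and 10.4% of all 13128 genes. In that class 26.1% of 3282 genes passed 2-fold in either direction. The median size of the difference, sign ignored, was 0.17 over the 7 genes, against 0.50 over all genes and 0.56 in that class. Differences this small were common, since 45.1% of all genes and 41.3% in that class were no further from 0 than Ces1f. A count over 7 genes on 2 arrays is a description of these pools and was not tested.

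**Figure D1:**
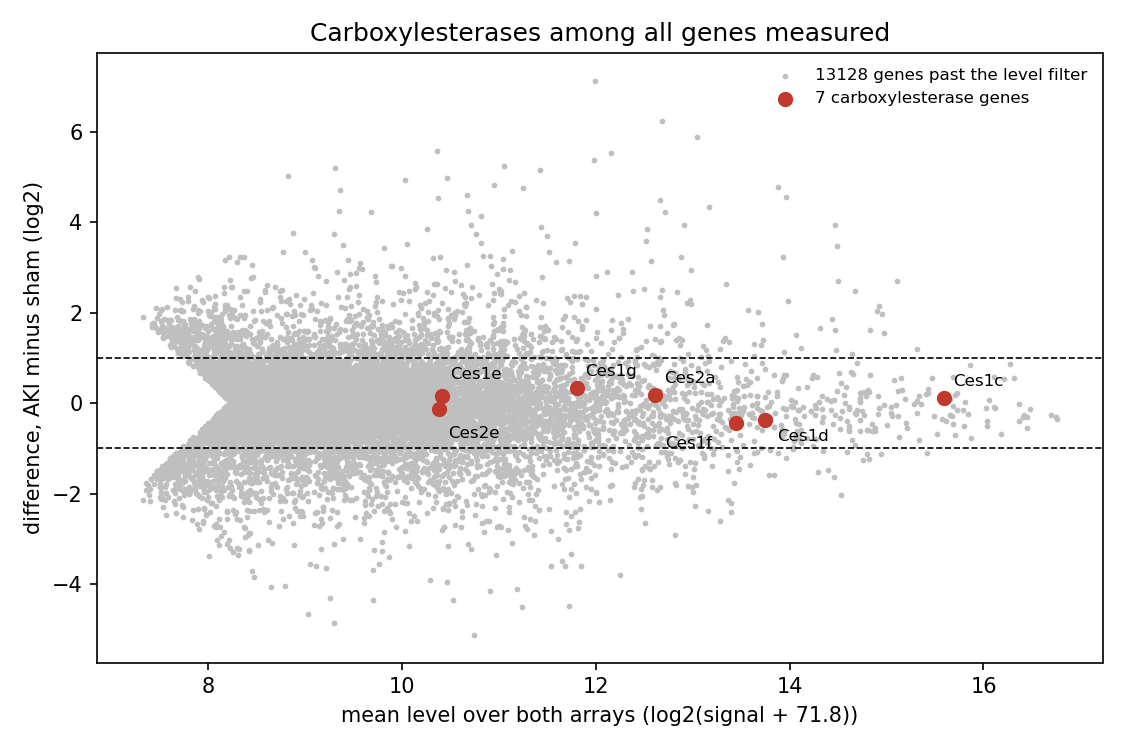
Difference between the AKI and sham pools (log2, y axis) against the mean level over both arrays (log2 of signal plus 71.8, x axis) for 13128 genes (grey) and the 7 measured carboxylesterase genes (red). Dashed lines mark 2-fold; the red points lie between -0.44 and 0.33, inside the lines, while 22.9% of all genes lie on or beyond them.

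The lowest values were those of Ces1f, of the probe set shared by Ces3a and Ces3b, and of Ces1d. Ces1d encodes triacylglycerol hydrolase, which mobilises stored triglyceride for VLDL assembly and is also made in fat. Its main probe set, 1449081_at, read 12020.6 in the AKI pool and 15551.6 in the sham pool, a difference of -0.37. The other Ces1d probe sets read lower in the AKI pool too, 1435370_a_at with 4473.1 against 5152 in the sham pool (-0.20) and 1435371_x_at with 1253 against 1403.5 in the sham pool (-0.16). All 3 probe sets of Ces1d were below 0 under the authors' scaling, with an SD of their differences of 0.11, but with centring on hybridization controls they were at -0.07, 0.10 and 0.14. Ces1f, a close relative also known as TGH-2, had a signal of 9552.9 in the AKI pool and 12956.1 in the sham pool, a ratio of 0.737 and a difference of -0.44. Its single probe set, 1424266_s_at, carries a suffix for probes that may match several transcripts.

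Ces3a could be read only together with its neighbour Ces3b. The probe set they share, 1451600_s_at, had a signal of 16432.2 in the AKI pool and 21750.9 in the sham pool, a difference of -0.40. How much of this signal comes from each of the 2 genes cannot be told from the array. Older names add to the ambiguity, since the RefSeq table lists Ces3 as a former symbol of both Ces1d and Ces3a.

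The other Ces1 genes had values above 0 under the authors' scaling. Ces1g, whose loss in mice raises liver fat, had the highest value of the members (probe set 1449486_at), 3925 in the AKI pool and 3117.7 in the sham pool, a ratio of 1.26 and a difference of 0.33. Ces1e encodes egasyn, which holds beta-glucuronidase in the endoplasmic reticulum. The Ces1e probe set 1419510_at read 1375.1 in the AKI pool and 1219.5 in the sham pool (0.16). Ces1c, the carboxylesterase that mouse liver secretes into plasma, read 51375.3 in the AKI pool and 47644.5 in the sham pool on probe set 1416913_at (0.11). The signs of Ces1c and Ces1e are not settled, since centring the arrays on reference genes put them at -0.09 and -0.04. Along the chromosome, under the authors' scaling, Ces1d and Ces1f were below 0 and Ces1c, Ces1e and Ces1g above it, so the sign changed from each gene to the next. With centring on reference genes Ces1c to Ces1f were all below 0.

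The 2 measured Ces2 genes stayed close to 0. Ces2a, which hydrolyses drugs and glycerolipids in the liver, had a signal of 6592 in the AKI pool and 5839 in the sham pool on probe set 1449375_at (0.17). With centring on reference genes its difference was -0.03. Ces2e, a relative expressed in liver and intestine, had a signal of 1213.7 in the AKI pool and 1324.9 in the sham pool on probe set 1427137_at. Its difference was -0.12, or 0.18 with centring on hybridization controls.

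**Figure D2:**
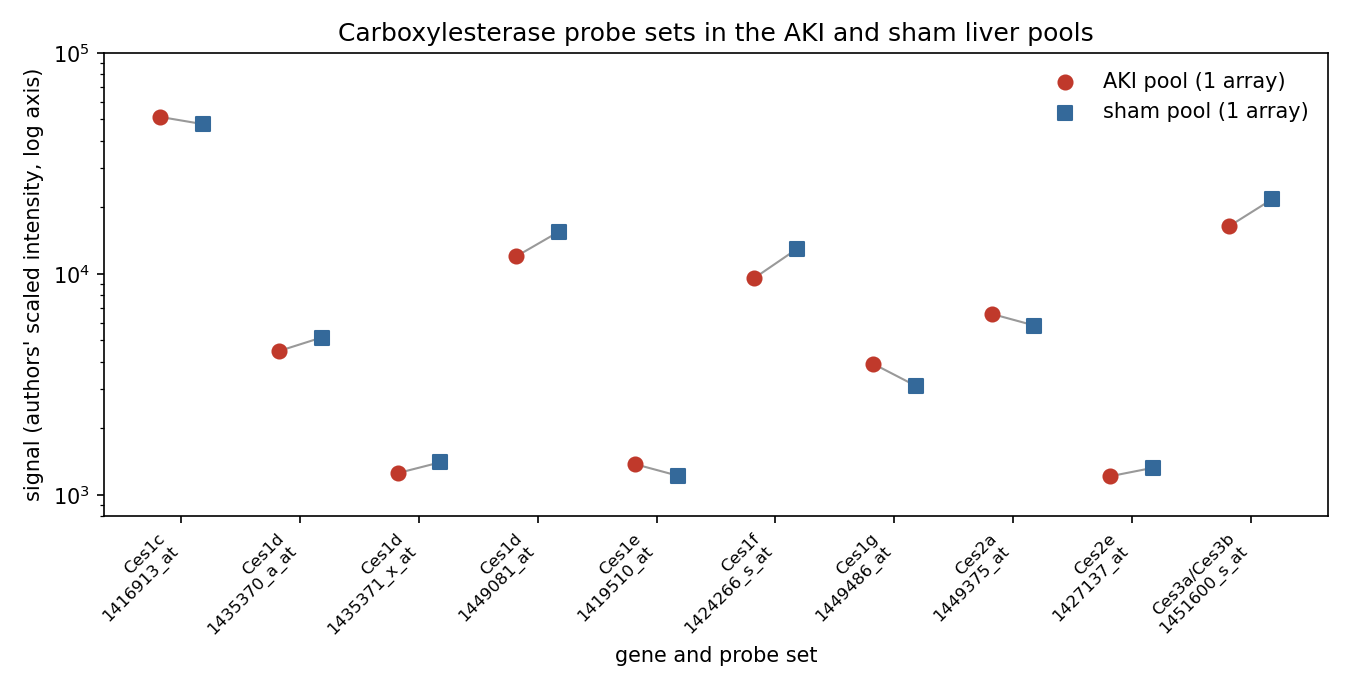
Signal on a log axis (the authors' scaled intensity) for the 10 probe sets assigned to members, the AKI pool as red circles and the sham pool as blue squares, 1 array each. Only the 2 points of a probe set can be compared; the 3 Ces1d probe sets, Ces1f, Ces2e and the probe set shared by Ces3a and Ces3b are lower in the AKI pool, the others higher.

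Repeat measurements on these arrays come solely from genes with several probe sets. For the 1934 such genes in the highest of 4 level classes, the SD of the difference between probe sets of one gene was 0.66. Every member's difference was smaller than this, so none can be told from disagreement between probe sets. The direction also depended on how the arrays were brought to a common scale. The main probe set of Ces1d, Ces1f and the probe set shared by Ces3a and Ces3b were below 0, and Ces1g above 0, under the authors' scaling and each alternative that gave them a value, while Ces1c, Ces1e, Ces2a and Ces2e were not on 1 side throughout. No member reached 2-fold under any of the 11 alternatives, though a changed level filter could not alter a member's difference. The lowest value was -0.64 for Ces1f with centring on reference genes, and the highest was 0.62 for Ces1g with centring on hybridization controls.

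**Figure D3:**
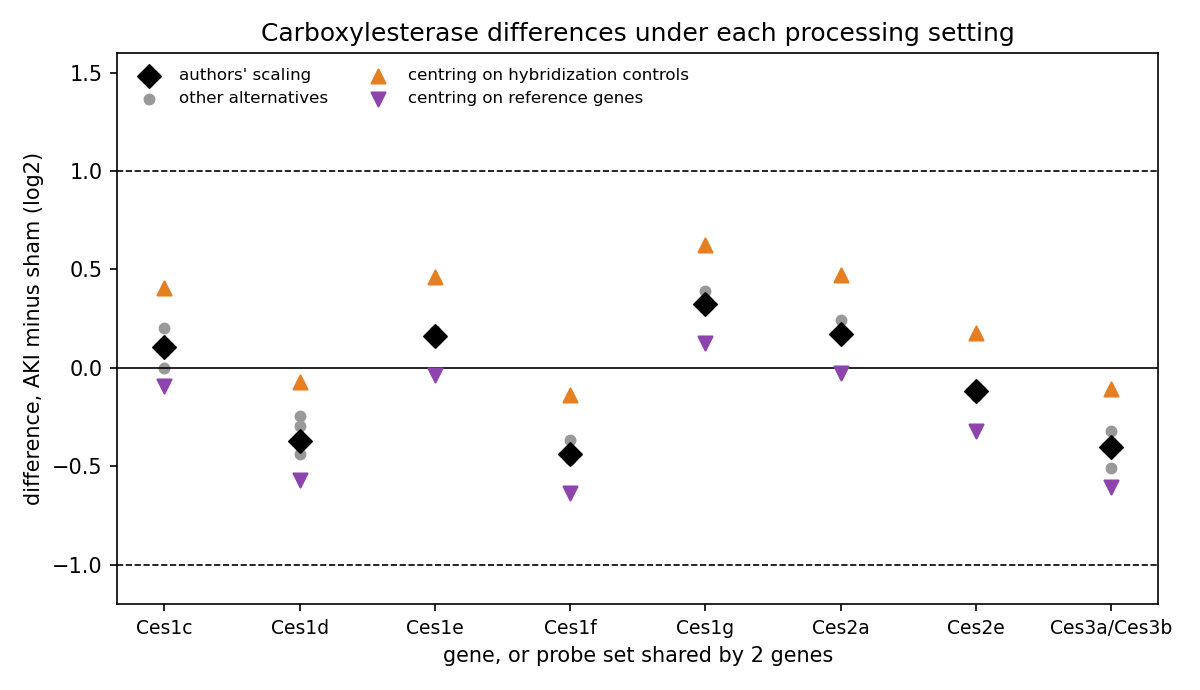
Difference between the AKI and sham pools (log2, y axis) for each measured member and for the probe set shared by Ces3a and Ces3b (x axis), under the authors' scaling (black), with centring on hybridization controls (orange), with centring on reference genes (purple) and under the other alternatives (grey). Dashed lines mark 2-fold; all points lie between -0.64 and 0.62, and the orange and purple points are shifted by the same amount for every gene.

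Beyond the 10 members, 10 other family genes were looked up, of which 6 had a probe set of their own and 4 passed the level filter. None of the 4 reached 2-fold. Ces4a had a signal of 680.9 in the AKI pool and 471.3 in the sham pool (0.47), and Ces1h had 532.3 in the AKI pool and 377.2 in the sham pool (0.43). Ces2g had a signal of 896.7 in the AKI pool and 1087 in the sham pool (-0.26). Ces5a, known as cauxin and abundant in cat urine, read 4263.8 in the AKI pool and 3328.3 in the sham pool on its strongest probe set (0.35), with its other probe sets at 0.51 and 0.08. The strongest, 1459865_x_at, carries a suffix for probes that may match other transcripts. The Ces5a probe set without such a suffix, 1432406_at, read only 279.8 in the AKI pool and 175.4 in the sham pool (0.51). Ces2b and Ces2f were below the filter in both pools, with signals from 4.9 to 91.7. Ces1a, Ces2d-ps and Ces2h had no named probe set, and Ces3b only the one it shares with Ces3a.

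Among other genes of ester and lipid hydrolysis, 22 were measured. Of these 22, from a list of 24, 5 were at least 2-fold lower and 0 at least 2-fold higher on their main probe set, beside 12.4% and 10.4% of all genes, with a median of -0.41 against -0.02 over all genes. The 5 were the lysophospholipase gene Abhd12 (-1.71), the endothelial lipase gene Lipg (-1.65), Faah (-1.59), which breaks down fatty acid amides, the lysosomal acid lipase gene Lipa (-1.56) and Bphl (-1.40). Another probe set of Abhd12 was at -0.55 and another of Bphl at 0.12. Lipg passed the level filter in the sham pool only, with signals of 222.2 in the AKI pool and 852.7 in the sham pool. In the other direction, Pnpla2, the main triglyceride lipase of fat, was at 0.97 with another probe set at 1.83. Its coactivator gene Abhd5 was at 0.72 with another at 1.16. Lower values on another probe set were read for Mgll (-0.83, another at -1.57) and Abhd6 (-0.37, another at -1.72). Probe sets differed in sign for Nceh1 (-0.39, another at 0.22) and Pon2 (-0.07, others at -0.68 and 0.22). Aadac, an esterase of the endoplasmic reticulum with overlapping substrates, was at -0.26 with signals of 10329.4 in the AKI pool and 12424.9 in the sham pool. In the VLDL assembly list 3 of 8 measured genes were at least 2-fold lower and 0 higher, beside the same 12.4% and 10.4%, namely Dgat2 (-2.41), which makes triglyceride, Cideb (-1.85) and Tm6sf2 (-1.58), and the list median was -0.33.

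Transcription factor genes with known roles in hepatic or drug-responsive gene control had a median further from 0 than that of the carboxylesterases. This list, like the other lists, was chosen with earlier results of these data known. The contrast is thus a description and not an independent comparison. Of 13 measured, 8 were at least 2-fold lower and 0 at least 2-fold higher on their main probe set, beside 12.4% and 10.4% of all genes, with a median of -1.34. Probe sets disagreed for 2 of the 8, Nfe2l2 with -1.77 on its main probe set and 3.05 on the other, and Rxra with -1.31 and 0.01. The bile acid-responsive repressor gene Nr0b2 had a signal of 83 in the AKI pool and 1746.5 in the sham pool (-3.55). Nr0b2 thus passed the level filter in the sham pool only. Nr1i3, the drug-sensing receptor CAR, had 700.8 in the AKI pool and 4651.7 in the sham pool (-2.61). The bile acid receptor gene Nr1h4 was at -2.31 and Ppara at -2.01, while Nr1i2, the drug-sensing receptor PXR, was at -0.38. Only Ahr was above 0, at 0.81, with its other probe set at -0.20. Genes known to be raised by CAR or PXR went both ways, with a median of -0.13. On main probe sets, 1 of 12 measured was at least 2-fold lower, Aldh1a1 (-1.10). At least 2-fold higher were 2, Cyp2b10 (1.81) and Abcb1a (1.24). These counts are near the shares of 12.4% and 10.4% over all genes. Another probe set of Abcb1a was at 0.93, and Alas1 was at -0.87 on its main probe set and -1.08 on the other. No relation between these genes and the carboxylesterases was tested.

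**Figure D4:**
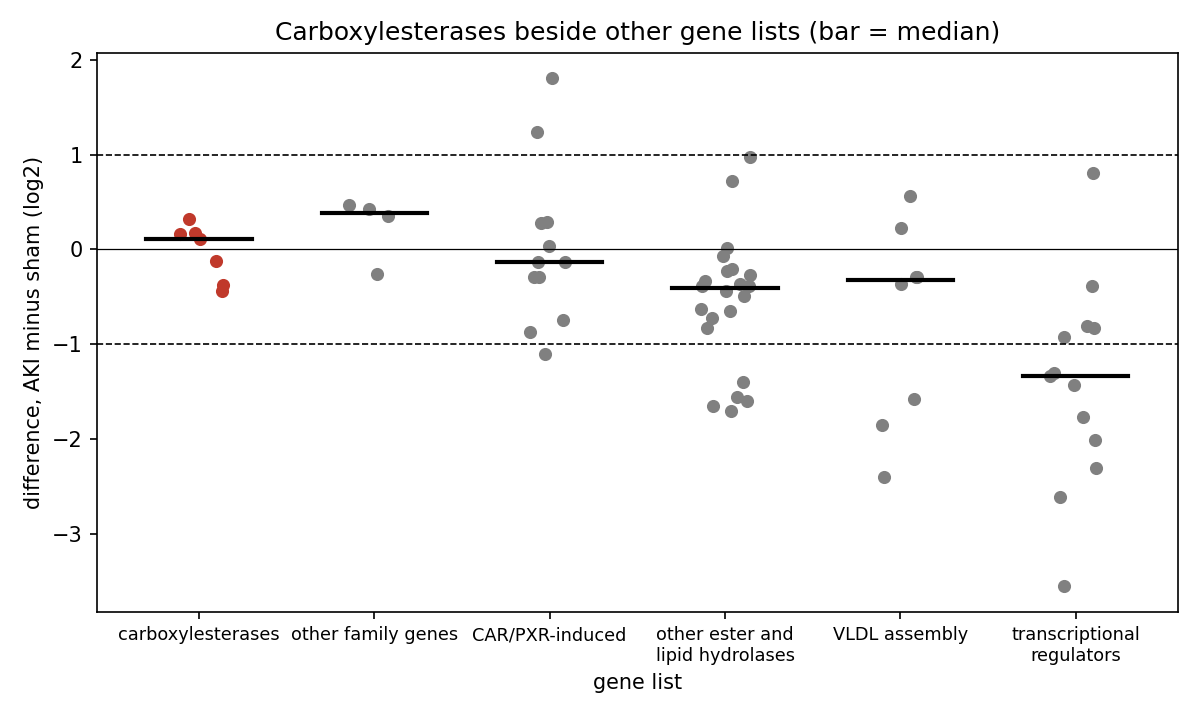
Difference between the AKI and sham pools (log2, y axis) for the genes past the level filter in 6 lists (x axis), 1 point a gene, with bars at the list medians and dashed lines at 2-fold. The carboxylesterases have a median of 0.11 and no gene beyond 2-fold. The transcriptional regulators have a median of -1.34 with 8 of 13 genes at least 2-fold lower on the main probe set plotted here. Another probe set of Nfe2l2, at 3.05, is not drawn. All lists were chosen with earlier results of these data known.

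Partners of the carboxylesterases in the endoplasmic reticulum were looked up as well. Gusb, the beta-glucuronidase that egasyn binds, had signals of 1167.9 in the AKI pool and 1191.8 in the sham pool (-0.03), with its other probe set at 0.48. Crp, a plasma protein that carboxylesterases hold back in the endoplasmic reticulum of rabbit liver, was at -1.81 with signals of 3797.2 in the AKI pool and 13520.7 in the sham pool. The receptors that return resident proteins to the endoplasmic reticulum differed by less than 2-fold, Kdelr1 at -0.11 and Kdelr2 at 0.30, and Kdelr3 was below the level filter in both pools (0.28).

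Markers of other cell types were read beside these values, and their part in the results was not tested. The summed signal of the hepatocyte markers was 471904 in the AKI pool and 488991 in the sham pool, and without the fibrinogen gene Fgb (0.88) 365022 in the AKI pool and 430768 in the sham pool. Fat, where Ces1d is also made, was represented by 4 of 6 listed markers, with summed signals of 3577.9 in the AKI pool and 1774.5 in the sham pool. Without Fabp4 (2.46, with another probe set at 0.37) the sums were 1300 in the AKI pool and 1420.5 in the sham pool, and the defining markers Adipoq and Lep were below the level filter in both pools. Of the intestinal and pancreatic markers 5 of 8 were measured, summing to 3978.8 in the AKI pool and 4422.4 in the sham pool, with none past 2-fold among the 2 past the filter. The 6 of 8 neutrophil markers measured summed to 5252.3 in the AKI pool and 1641.2 in the sham pool, with S100a8 (3.17) and S100a9 (2.72) at least 2-fold higher. Without S100a8 the sums were 3228.9 in the AKI pool and 1479.8 in the sham pool. Mpo (-0.03), Csf3r (0.14) and Elane (0.76) differed by less than 2-fold, and Camp was below the level filter. The 8 macrophage markers summed to 8920.1 in the AKI pool and 14396.8 in the sham pool, with Clec4f (-1.37), Cd5l (-1.24) and C1qa (-1.01) at least 2-fold lower and Marco (1.46) higher. Endothelial markers went both ways, their 7 signals summing to 6312.6 in the AKI pool and 9088 in the sham pool. Clec4g (-2.08) was lower, Lyve1 (1.79) was higher, and Eng was at -1.25 on its main probe set but 0.73 on the other. Without Clec4g the sums were 5638.6 in the AKI pool and 6001.9 in the sham pool. The 7 stellate cell markers summed to 18438.3 in the AKI pool and 12152.4 in the sham pool, but without Dcn (0.92) to 3716.1 in the AKI pool and 4427.5 in the sham pool, and Lrat was at -1.74. Bile duct markers, 5 of 6, summed to 2870.7 in the AKI pool and 1123.6 in the sham pool, and without Sox9 (2.58) to 1140.8 in the AKI pool and 894.4 in the sham pool, with Krt19, Krt7 and Cftr below the level filter. Lymphocyte markers, 6 of 7, summed to 4145.4 in the AKI pool and 2911.4 in the sham pool, with Nkg7 (1.27) higher. Without Cd8a (0.82, with another probe set at -0.19) the sums were 1924.2 in the AKI pool and 1682.1 in the sham pool. Cd79a was at 0.22 and Ms4a1 at -0.01, and Cd3e and Cd3g were below the level filter. Of the markers named here as past 2-fold, S100a8, S100a9, Marco and Nkg7 passed the level filter in the AKI pool only. Lrat passed it in the sham pool only. No measured marker had a signal of 0 on either array.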

How the data were processed

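The authors deposited 1 table of signal intensity per probe set on a linear scale, for 2 Affymetrix arrays. The software and its settings are not given in the sources used here. Trimmed by 2% at each end, both arrays had a mean signal of 500, so the deposited intensity values had been scaled to a common target, which removes any difference in total mRNA. Of 45101 probe sets 64 are controls. The platform annotation names 34945 of the others by 1 gene symbol, 932 by several and 9160 by none. RefSeq gene numbers (GRCm38.p6) altered 0 symbols.

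The difference is AKI minus sham of log2(signal + 71.8), the 25th percentile of the table. The level filter is the median of non-control probe sets (231.8 AKI, 225.7 sham) on at least 1 array. With 1 array per group no test was made. The number of arrays limits the precision. The members and all gene lists were chosen with earlier results of these data known. Text names every member and family gene and, of other lists, up to 4 genes past 2-fold, or all where a count was 5 or fewer. Genes with disagreeing probe sets and those that lead a marker sum were added after their values were seen. Nr1i2 and Aadac were added for their function after their values were seen. Further markers named beside a marker sum were also added after their values were seen. The computation was tested on simulated data. Computation used Python 3.11.15 (pandas 2.3.3, numpy 2.4.6, statsmodels 0.14.6), and matplotlib 3.10.9 drew the plots.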

Additional observations from a re-analysis of the deposited data

How the results depend on the processing

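The 11 alternatives were median, quantile and lowess (fraction 0.3) scaling, centring on 18 hybridization control probe sets or on 10 reference genes, a pseudocount set to 1 or to 228.7 (the table median), no level filter or one at the 75th percentile, averaging the probe sets of a gene, and leaving out probe sets with suffix _s_at, _x_at or _a_at, which leaves 6 members. The counts of members at least 2-fold lower and at least 2-fold higher were 0 under all of them. Changing the level filter left every member's difference as it was, so those settings are no check on these counts. The median over members ran from -0.09 with centring on reference genes to 0.41 with centring on hybridization controls, against 0.11 under the authors' scaling. These centrings moved the median of all genes to -0.22 and 0.28, against -0.02, so the members moved with all genes. Over all genes, 1066 were then at least 2-fold lower and 2211 higher with hybridization controls (67.5% higher), and 2216 lower and 1002 higher with reference genes (31.1% higher), against 1634 lower and 1370 higher (45.6% higher). With the larger pseudocount the counts were 1063 and 841. No paired analysis was possible because each group has 1 array. The reference genes themselves spanned -0.67 to 1.20, with Ywhaz at least 2-fold higher on its main probe set. The 7 probe sets of Ywhaz ran from -0.40 to 1.20. Cross-reading between probe sets of paralogs was not tested, and pooling hides the spread between mice.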

Other observations

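The D-box letters in the Ces1 windows led to a look at the genes of factors known to read such elements, chosen after their values were seen. The PAR bZIP activator genes were lower in the AKI pool, Dbp with signals of 557.7 in the AKI pool and 6335.3 in the sham pool (-3.35), Tef at -1.99 and Hlf at -1.14. Nfil3, whose product represses through the same element, had 2687.3 in the AKI pool and 323.2 in the sham pool (2.80), and Cebpb was at 0.84. The Ces1 genes whose windows hold these letters were at 0.11 for Ces1c, 0.16 for Ces1e and 0.33 for Ces1g in the same pools. With centring on reference genes these 3 were at -0.09, -0.04 and 0.13, so the signs of Ces1c and Ces1e are not settled. Ces1b, which also has a window with these letters, was not measured. The letters were picked as the run that the windows of Ces1c, Ces1e and Ces1g share, so every measured Ces1 gene with a window holds them. Ces1d (-0.37) and Ces1f (-0.44) had no window, so whether they have these letters is not known here. No relation between the factors and the Ces1 genes was tested.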
